A study of Mus musculus with 8 samples.

Results

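Microglia are the resident immune cells of the retina, and 9 genes that mark them or mark leukocytes in general were followed here: Csf1r, Cx3cr1, P2ry12, Aif1, Itgam, Ptprc, Ly86, Spi1 and Laptm5. They are 9 of the 18193 genes that the array's annotation names with a single symbol. They were chosen by name, and they were read at all 17 of the 45037 probe sets that carry 1 of those symbols alone. RNA had been taken from 4 retinas of injected mouse eyes, labelled as a compound-based treatment, and from 4 freshly dissected control retinas, labelled as time 0 d, and each sample had been hybridised to 1 Affymetrix array. The labels do not name the compound, and they give no dose, route of injection, time after it, strain, genotype or age of the mice. There is no group injected without the compound. All 8 titles carry the tag ENZO, which the labels do not explain. The labels do not say that the 4 samples of a group came from separate mice, so p-values measure only the spread among these samples, part of which may be technical.

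Microglia enter the retina during development and keep their number by local division. Their survival depends on the receptor encoded by Csf1r, which binds colony-stimulating factor 1 and interleukin 34. Cx3cr1 encodes the receptor for fractalkine, a chemokine that neurons make, and P2ry12 encodes a receptor for adenine nucleotides by which microglial processes find injured cells. Spi1 encodes PU.1, the transcription factor that sets up the myeloid lineage and acts at Csf1r, Itgam and many other genes of these cells. Ptprc encodes CD45, the phosphatase on the surface of all leukocytes, and Laptm5 encodes a lysosomal membrane protein of blood-forming cells. Itgam encodes CD11b, the alpha chain of complement receptor 3, Aif1 encodes the actin-binding protein IBA1 by which microglia are usually stained, and Ly86 encodes MD-1, the partner of the toll-like receptor homologue CD180.

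The comparison of injected with control retina asks whether the level of these genes differed after injection. At its brightest probe set, Csf1r was 2.40-fold higher in injected retina, Laptm5 2.35-fold, Ptprc 2.19-fold and Ly86 1.61-fold, and for each of them all 4 injected arrays lay above all 4 control arrays. At the other tested probe sets of Csf1r and Laptm5 the groups overlapped. Differences there were -0.26 and 0.64 log2 units for Csf1r and ran from 0.09 to 0.91 for Laptm5. Cx3cr1 had a higher mean in injected retina with overlapping groups, P2ry12 had the same mean in both groups to within its error, and Spi1 had a lower mean. None of these differences passed limma's test after Benjamini-Hochberg adjustment over all 27022 tested probe sets. In these whole retinas more cells of a type and more RNA per cell cannot be told apart.

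Values are log2(intensity + 16) after quantile normalisation of the arrays, and folds and differences are on that scale, where the added 16 shrinks the change of dim genes. A probe set was tested if its mean over the 8 arrays reached the 40th percentile, a log2 value of 8.50. Of the 17 probe sets of the 9 genes, 13 passed, for 7 genes, and Aif1 and Itgam had no tested probe set. By limma 0 of the 13 passed at an adjusted p under 0.05 (smallest 0.513), where 0% of all probe sets passed in either direction, and 0 passed in an unmoderated test of the same model. At an unadjusted p under 0.05, 4 of the 13 were higher in injected retina and 0 were lower, against 3.66% of all probe sets higher and 3.33% lower. Read at 1 probe set per gene, 4 of the 7 tested genes were higher at that threshold, against 3.77% of 12886 genes. The groups did not overlap, with injected higher, at 4 of the 13 probe sets, against 2.47% of all probe sets (2.6% with injected lower), and at 4 of the 7 genes, against 2.85% of all genes (2.65% with injected lower), but with arrays centred on their medians in place of quantile normalisation they did so at 0 of 7. That centring also moved the median of all probe sets, to -0.15 in place of -0.02. It changed the split of all probe sets at an unadjusted p under 0.05 to 645 higher and 1404 lower, against 990 and 899 after quantile normalisation and 1313 and 626 on the deposited scale. The median difference over the 7 tested genes was 0.69, against -0.01 over all tested genes, and it was 0.45 after centring.

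**Figure D1:**
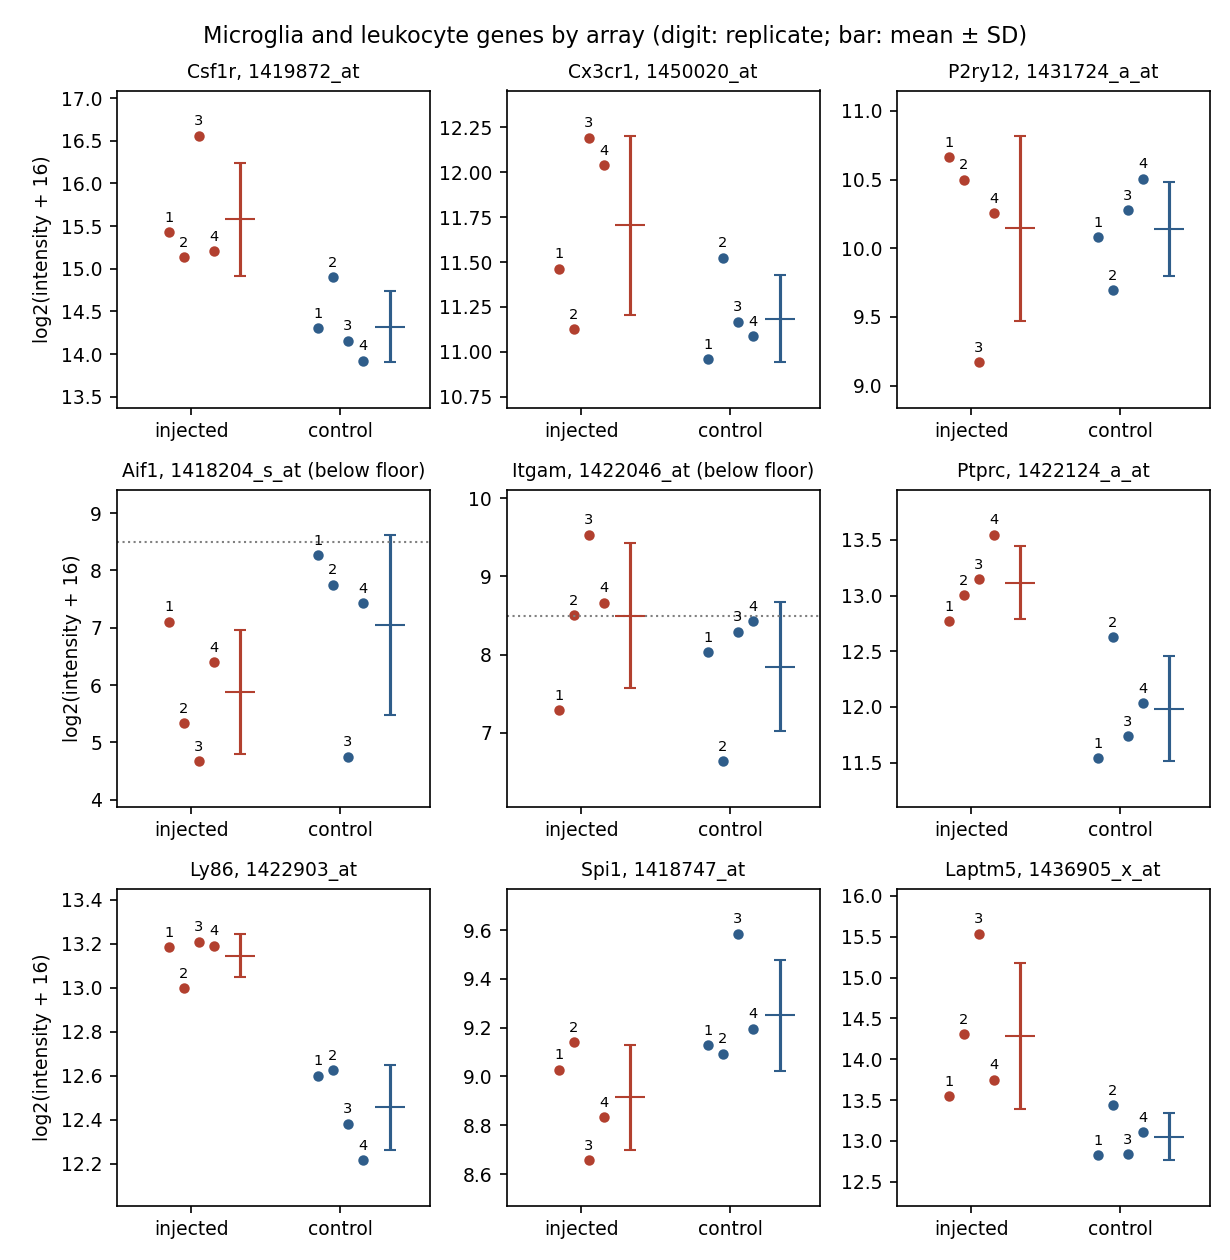
Log2 values of the 9 genes at their brightest probe set, with 1 point per array (the digit is the replicate) and the mean ± SD beside each group of 4, injected left of control; the dotted line marks the floor of 8.50 for the genes below it. All 4 injected points lie above all control points for Csf1r, Ptprc, Ly86 and Laptm5 and overlap with them for the other 5 genes.

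Csf1r was read at 3 probe sets. At 1419872_at the log2 values were 15.43, 15.14, 16.56 and 15.21 in injected retina, replicates 1 to 4, and 14.30, 14.90, 14.16 and 13.92 in control retina. Injected replicate 3 was the highest array and control replicate 2 the highest control, still below every injected array. The difference was 1.26 ± 0.35 log2 units (SE, n = 4 each; 95% confidence interval 0.48 to 2.05; limma adjusted p = 0.57). Without injected replicate 3 it was 0.91.

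The other probe sets of Csf1r did not repeat this difference in full. At 1419873_s_at the injected values ran from 11.76 to 12.91 and the control values from 10.93 to 12.10, a difference of 0.64 ± 0.32 (SE; limma adjusted p = 0.725), and of 0.39 without injected replicate 3. At 1423593_a_at the injected values ran from 9.03 to 9.53 and the control values from 9.29 to 9.85, a difference of -0.26 ± 0.20 (limma adjusted p = 0.765), and of -0.16 without control replicate 2. The first and second of the 3 probe sets moved together over the 8 arrays once group means were taken out (Pearson r = 0.95), while the third did not follow the first (r = -0.08). The annotation gives a transcript accession for 1423593_a_at and none for the other 2. Which of them reads the mature Csf1r transcript was not tested.

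Cx3cr1 at 1450020_at had log2 values of 11.46, 11.13, 12.19 and 12.04 in injected retina and 10.96, 11.52, 11.17 and 11.09 in control retina. Injected replicates 3 and 4 stood above every control, and replicates 1 and 2 lay within the range of the controls, below control replicate 2. The difference was 0.52 ± 0.27 (SE; 95% interval -0.08 to 1.12; limma adjusted p = 0.725), and it was 0.30 after centring on array medians. The second probe set, 1450019_at, lay below the floor on average, with injected values from 6.82 to 8.74 and control values from 4.84 to 8.62, and was not tested.

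P2ry12 at its only probe set had log2 values of 10.66, 10.50, 9.17 and 10.25 in injected retina and 10.08, 9.70, 10.28 and 10.51 in control retina. Injected replicates 1 and 3 were the highest and the lowest of the 8 arrays, so the spread within the injected group covered that of the controls. The difference was 0.01 ± 0.34 (SE; limma adjusted p = 0.999), and its 95% interval, from -0.76 to 0.77, leaves room for a change of over 0.7 log2 units either way. Without injected replicate 3 it was 0.34, and without injected replicate 1 it was -0.17. The arrays highest in Csf1r within each group, injected replicate 3 and control replicate 2, were the lowest in P2ry12.

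Spi1 had log2 values of 9.03, 9.14, 8.66 and 8.83 in injected retina and 9.13, 9.09, 9.58 and 9.20 in control retina. Injected replicate 2 lay within the range of the controls and the other 3 injected arrays below it. The difference was -0.34 ± 0.20 (SE; 95% interval -0.78 to 0.10; limma adjusted p = 0.742), and -0.22 without control replicate 3. Its sign was opposite to that of Csf1r, Ptprc, Ly86 and Laptm5 at their brightest probe sets, but the same as that of Csf1r at 1423593_a_at (-0.26). The means, 8.91 ± 0.21 in injected and 9.25 ± 0.23 in control retina (SD), were close to the floor.

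Ptprc at 1422124_a_at had log2 values of 12.77, 13.002, 13.15 and 13.55 in injected retina and 11.54, 12.63, 11.74 and 12.03 in control retina. Control replicate 2 came within 0.2 log2 units of the lowest injected array, and the other 3 controls lay well below. The difference was 1.13 ± 0.28 (SE; 95% interval 0.51 to 1.75; limma adjusted p = 0.513), and 1.34 without control replicate 2. The second Ptprc probe set, 1440165_at, was below the floor, with injected values from 5.14 to 7.51 and control values from 6.27 to 7.81.

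Ly86 varied least of the 7 tested genes within both groups (SD 0.099 in injected and 0.19 in control retina). Its log2 values were 13.19, 12.9985, 13.21 and 13.19 in injected retina and 12.60, 12.63, 12.38 and 12.22 in control retina. No injected array came near a control, and neither injected replicate 3 nor control replicate 2 stood apart. The difference was 0.69 ± 0.17 (SE; 95% interval 0.30 to 1.08; limma adjusted p = 0.532), it kept between 0.61 and 0.75 when any single array was left out, and it was 0.45 after centring on array medians.

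Laptm5 was read at 5 probe sets. At 1436905_x_at the log2 values were 13.54, 14.30, 15.54 and 13.75 in injected retina and 12.82, 13.44, 12.83 and 13.11 in control retina. Injected replicate 1 was only just above control replicate 2, and injected replicate 3 stood far above all others. The difference was 1.23 ± 0.41 (SE; 95% interval 0.32 to 2.15; limma adjusted p = 0.643), but 0.81 without injected replicate 3. The other 4 Laptm5 probe sets had positive differences of 0.09 (1447742_at), 0.16 (1426025_s_at), 0.56 (1459841_x_at) and 0.91 (1417721_s_at), each with overlapping groups and an adjusted p of at least 0.73. The first of those 4 turned negative without injected replicate 4 (-0.14), and the other 3 also moved with single arrays. 1426025_s_at was at 0.08 without injected replicate 3 and at 0.25 without control replicate 3. 1459841_x_at was at 0.28 without injected replicate 3 and at 1.06 without injected replicate 2, and 1417721_s_at was at 0.57 without control replicate 3. The control mean of 1417721_s_at, 8.10, lay below the floor, so this probe set was tested only because the injected arrays were higher. Of the 13 tested probe sets, 5 have names ending in x_at or s_at, which can bind related transcripts, and 4 of these 5 are 4 of the Laptm5 probe sets.

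**Figure D2:**
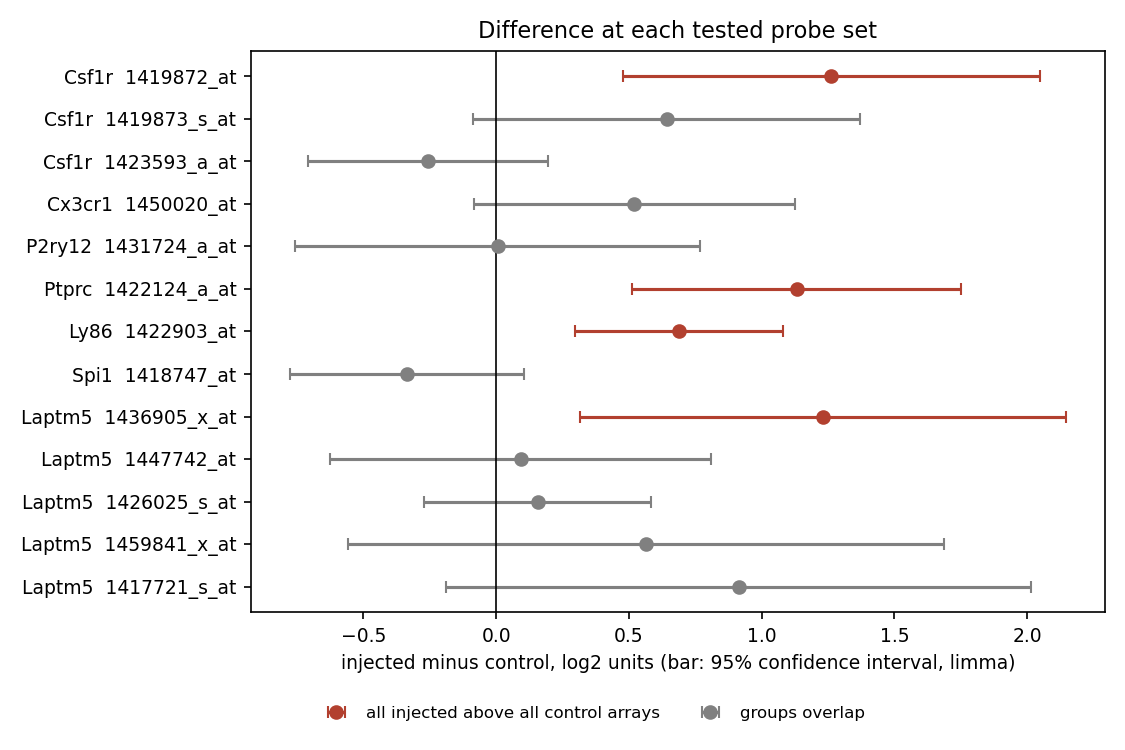
Injected minus control in log2 units at the 13 tested probe sets of 7 genes, with the 95% confidence interval of limma; red marks probe sets at which all injected arrays lay above all control arrays. The 3 probe sets of Csf1r run from -0.26 to 1.26 and the 5 of Laptm5 from 0.09 to 1.23.

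Itgam and Aif1, the genes whose proteins are most used to stain microglia, were the 2 genes with no probe set at or above the floor. Itgam had log2 values of 7.28, 8.51, 9.53 and 8.66 in injected retina and 8.03, 6.63, 8.30 and 8.43 in control retina. Injected replicates 2, 3 and 4 lay above every control and above the floor, and injected replicate 1 within the controls. Aif1 had 7.10, 5.33, 4.67 and 6.40 in injected retina and 8.27, 7.75, 4.75 and 7.42 in control retina, all below the floor. The groups overlapped at both genes, and neither was tested.

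Since PU.1 acts at many genes of these cells, the sequence before the start site of the genes was searched for the core of its motif, GAGGAA, and for the longer GAGGAAGT, which contains it, and for the motif of interferon regulatory factors, which is 2 copies of GAAA with 2 bases of any kind between them, each on both strands. RefSeq promoter windows of 300 bases (250 before and 50 from the start site on; GRCm38.p6) matched 7 of the 9 genes, in 8 windows. GAGGAA was found in 4 of the 8 windows, 1 each of Aif1, Itgam, Ptprc and Laptm5, against 28.3% of all 32851 windows. The other window of Ptprc had no match. GAGGAAGT was found in 0 of the 8 windows, against 3.2% of all windows, and the interferon regulatory factor motif in 1 of the 8, that of Aif1, against 3.44%. A match is a description of these letters, not evidence of binding. The 250 bases before the start are printed for Ptprc, Laptm5 and Ly86, whose groups did not overlap, and for Itgam, which had 3 matches, with GAGGAA or its reverse complement TTCCTC in capitals and the rest in lower case.
Ptprc, chr1:138175306-138175555, minus strand: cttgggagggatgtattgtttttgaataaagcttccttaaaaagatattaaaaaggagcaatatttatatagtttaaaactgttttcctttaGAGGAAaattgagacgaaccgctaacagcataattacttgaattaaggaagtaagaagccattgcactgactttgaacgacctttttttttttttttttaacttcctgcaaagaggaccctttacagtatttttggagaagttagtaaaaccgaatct
Laptm5, chr4:130913066-130913315, plus strand: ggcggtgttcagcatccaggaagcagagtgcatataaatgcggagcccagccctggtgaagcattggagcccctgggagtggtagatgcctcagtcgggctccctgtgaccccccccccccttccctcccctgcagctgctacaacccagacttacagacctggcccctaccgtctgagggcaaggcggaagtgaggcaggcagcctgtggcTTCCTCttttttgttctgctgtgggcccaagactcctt
Ly86, chr13:37345095-37345344, plus strand: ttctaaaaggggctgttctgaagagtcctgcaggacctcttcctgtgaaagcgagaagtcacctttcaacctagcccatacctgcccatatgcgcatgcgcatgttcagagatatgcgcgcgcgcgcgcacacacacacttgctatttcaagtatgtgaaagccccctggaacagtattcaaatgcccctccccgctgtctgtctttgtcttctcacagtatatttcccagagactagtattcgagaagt
Itgam, chr7:128062390-128062639, plus strand: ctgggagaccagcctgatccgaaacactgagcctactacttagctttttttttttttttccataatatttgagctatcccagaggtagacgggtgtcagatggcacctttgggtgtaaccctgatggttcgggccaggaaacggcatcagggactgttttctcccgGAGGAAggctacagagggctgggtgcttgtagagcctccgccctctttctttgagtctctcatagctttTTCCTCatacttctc
The match before Ptprc starts 158 bases before the start site and that before Laptm5 starts 38 bases before it. Itgam has matches starting 84 and 15 bases before the start site and another inside the transcript, not printed. The Ly86 window has none.

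The genes did not vary as a block within the groups. Relative to the control mean, the mean of the 7 tested genes was 0.53, 0.54, 0.87 and 0.63 in injected replicates 1 to 4 and -0.14, 0.22, -0.04 and -0.05 in control replicates 1 to 4. Injected replicate 3 was the highest array for 4 of the 7 genes, Csf1r, Cx3cr1, Ly86 and Laptm5, injected replicate 4 for Ptprc, injected replicate 1 for P2ry12 and control replicate 3 for Spi1. After group means were taken out, 11 of the 21 gene pairs had a positive correlation over the 8 arrays (median r 0.09), from 0.80 for Csf1r with Laptm5 to -0.93 for Csf1r with P2ry12. The 8 points share their arrays and their scaling. Both extremes rest on the arrays that stand apart: without injected replicate 3 and control replicate 2, r was -0.77 for Csf1r with Laptm5 and -0.29 for Csf1r with P2ry12.

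**Figure D3:**
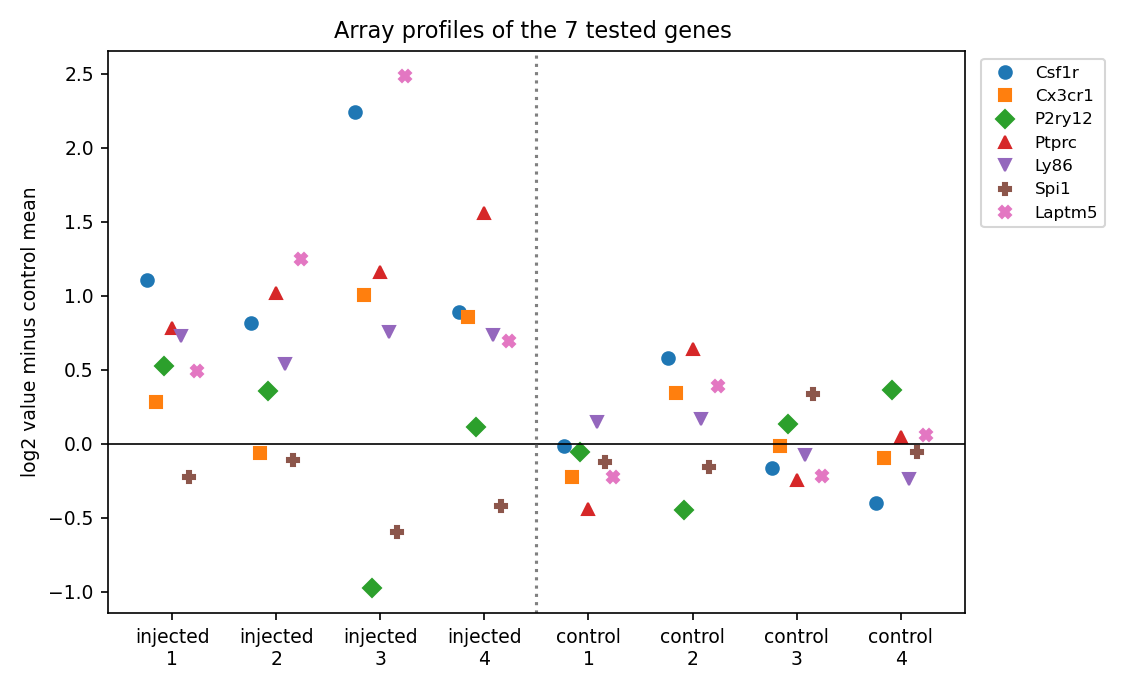
Log2 value minus the control mean of the gene for the 7 tested genes on each of the 4 injected and 4 control arrays, with 1 symbol per gene. Csf1r and Laptm5 are highest and P2ry12 is lowest on injected replicate 3, and control replicate 2 is the control array with the highest Csf1r, Ptprc, Cx3cr1, Ly86 and Laptm5.

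Some arrays stood apart in other measures. Injected replicate 3 had the lowest array weight in limma (0.191, against 0.646 to 1.83 on the other 7 arrays) and the lowest mean correlation with its group (0.874). The ratio of 3′ to 5′ signal at the Gapdh control probe sets, a sign of RNA length, was 6.23, 5.26, 8.82 and 6.71 in injected retina and 3.64, 3.95, 3.36 and 4.68 in control retina, higher on every injected array. For the actin control the groups overlapped, from 43.3 to 59.7 in injected and from 39.2 to 57.2 in control retina. Control replicate 2 carried the highest pigment epithelium and matrix signal of all 8 arrays, with list means 1.39 and 1.23 above the control mean. The part of RNA length, or of tissue carried along, in the differences of the 9 genes was not tested. With both of those arrays removed, injected replicate 3 and control replicate 2, Csf1r was at 1.10, Ptprc at 1.34, Ly86 at 0.73 and Laptm5 at 0.94. Limma's adjusted p was between 0.415 and 0.595. All 4 still had injected arrays above all controls, which could hardly change for genes apart on all 8 arrays. With the same arrays removed, 5.49% of all probe sets were apart with injected higher, against 2.47% on all 8 arrays.

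Ligands and partners of these receptors and of PU.1 were read from a list of 18 genes, of which 15 were tested. By limma 0 passed after adjustment, 3 were higher at an unadjusted p under 0.05 (3.77% of all tested genes were), 0 were lower (2.91% were), and the median difference was 0.26. Irf8, the transcription factor that pairs with PU.1 in microglia, averaged 10.62 ± 0.30 in injected and 9.51 ± 0.20 in control retina (SD). Its difference was 1.10 ± 0.21 (SE, n = 4 each; limma adjusted p = 0.346), with no overlap between groups. Cd180, whose protein binds that of Ly86, differed by 0.54 ± 0.19 (limma adjusted p = 0.669) and the transcription factor Jun by 0.55 ± 0.18 (adjusted p = 0.658). Irf8 and Jun were the 2 of the 15 tested genes with all injected arrays above all controls, against 2.85% of all tested genes. Itgb2, the beta chain that pairs with CD11b, differed by 0.49 ± 0.28 with overlapping groups (0.26 without control replicate 2). The ligands fall outside the rule by which genes were named and are given for their role. Csf1 differed by 0.09 ± 0.20, negative without control replicate 2 (-0.025). The fractalkine gene Cx3cl1 differed by 0.17 ± 0.32, negative without injected replicate 3 (-0.15). Il34 lay below the floor, with means of 7.52 in injected and 6.89 in control retina.

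Other genes enriched in microglia were read from a list of 26, of which 24 were on the array with a single symbol and 19 were tested. By limma 0 passed after adjustment, 3 were higher at an unadjusted p under 0.05 (5 without injected replicate 1; 3.77% of all tested genes were higher) and 0 lower (2.91% were), 14 had a positive and 5 a negative difference, and the median was 0.37. Of all tested genes 48.5% had a positive difference. The 14 include Siglech, whose control mean of 8.08 lay below the floor, so it was tested only because the injected arrays were higher. P2ry13, a nucleotide receptor closely related to P2ry12, differed by 0.73 ± 0.20 (SE; limma adjusted p = 0.552), where P2ry12 itself was at 0.01. The signalling adaptor Tyrobp differed by 0.76 ± 0.22 (adjusted p = 0.591) and the ectonucleotidase Entpd1 by 0.75 ± 0.29 (adjusted p = 0.709). Groups did not overlap, with injected higher, at 3 of the 19 tested, P2ry13, Tyrobp and Rgs10 (outside the naming rule), against 2.85% of all tested genes. Fcrls, an Fc-receptor-like gene of microglia, differed by 0.76 ± 0.38 with overlapping groups (0.49 without injected replicate 2). Tmem119, a surface protein used to tell microglia from other macrophages, fell outside the naming rule and was at -0.25 ± 0.38.

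Genes shared by most leukocytes were read from a list of 24, of which 19 were tested. By limma 0 passed after adjustment, 2 were higher at an unadjusted p under 0.05 (from 0 without control replicate 4 to 4 without injected replicate 4; 3.77% of all tested genes were higher) and 0 lower (2.91% were), and 16 differences were positive with a median of 0.38. A positive difference was found for 48.5% of all tested genes. The 16 include Was and Ikzf1, with control means of 8.38 and 8.37 below the floor, tested only because the injected arrays were higher. The phosphatase Ptpn6 differed by 0.74 ± 0.28 (SE; limma adjusted p = 0.709) and the integrin activator Fermt3 by 0.43 ± 0.17 (adjusted p = 0.709). At both, 2 of the 19 tested, the injected arrays lay above all controls, against 2.85% of all tested genes. Evi2a was at 0.80 ± 0.41 with overlapping groups (0.46 without injected replicate 4).

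Markers of other leukocytes were mostly below the floor. For T and NK cells 2 of 12 genes on the array were tested and 0 passed an unadjusted p under 0.05 (1 was lower without control replicate 2), and the T cell receptor genes Cd3e, Cd3d and Cd3g were all below the floor. For neutrophils 2 of 10 were tested, 1 with a positive and 1 with a negative difference. The negative one was Mmp9, at -0.18 ± 0.38 (SE; limma adjusted p = 0.901) with overlapping groups. Ngp, a granule protein, had means of 9.27 ± 0.40 in injected and 8.18 ± 0.54 in control retina (SD), a difference of 1.09 ± 0.31 (limma adjusted p = 0.582). Its control mean lay below the floor, so it was tested only because the injected arrays were higher, while S100a8, S100a9 and Mpo were below the floor. For B cells 5 of 8 were tested and all 5 differences were positive, where 48.5% of all tested genes had a positive difference. The count was 4 of 5 after centring on array medians and without injected replicate 1, injected replicate 4 or control replicate 1. Jchain was at 0.62 ± 0.24 (limma adjusted p = 0.709), Ighm at 0.12 and Blk at 0.01. Cd22, which microglia also express, was at 1.37 ± 0.63 (adjusted p = 0.725; 0.77 without control replicate 3). Cd79a, Cd79b and Pax5 were below the floor. For monocytes 4 of 7 were tested, with a median of 0.06 and the receptor Ccr2 below the floor. Itga4 was at 0.48 ± 0.20 (limma adjusted p = 0.712), Fn1 at 0.07, Vcan at 0.04 and Plac8 at -0.14. After centring on array medians 1 of the 4 was positive, and the list's median was -0.13. For macrophages of vessels and borders 6 of 9 were tested, 0 passed an unadjusted p under 0.05 and the median was -0.03, with Ms4a7 at 0.61 ± 0.39 (0.94 without injected replicate 3). In that list the mean of control replicate 2 was 0.82 over that of all controls. Without that array the list's median was 0.43 over 5 tested genes, with 4 positive and 1 higher at an unadjusted p under 0.05, and Ms4a7 was at 0.93. For mast cells 1 of 5 was tested and for erythroid cells 0 of 4. The sum of linear intensities over the neutrophil list ran from 3328 to 5343 in injected and from 2844 to 4347 in control retina. For T and NK cells it ran from 2508 to 3008 in injected and from 2810 to 3713 in control retina, and for B cells from 6100 to 11564 in injected and from 4929 to 5898 in control retina. Of these 3 sums only that of the B cell list did not overlap between groups, with 5898 on the highest control and 6100 on the lowest injected array. Such a sum weighs bright genes most and here includes Cd79a, Cd79b and Pax5, which were below the floor. It has no share over all genes beside it, so it does not show the B cell markers apart as a set. The part of such cells in the level of Ptprc, Laptm5 and Itgam was not tested.

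**Figure D4:**
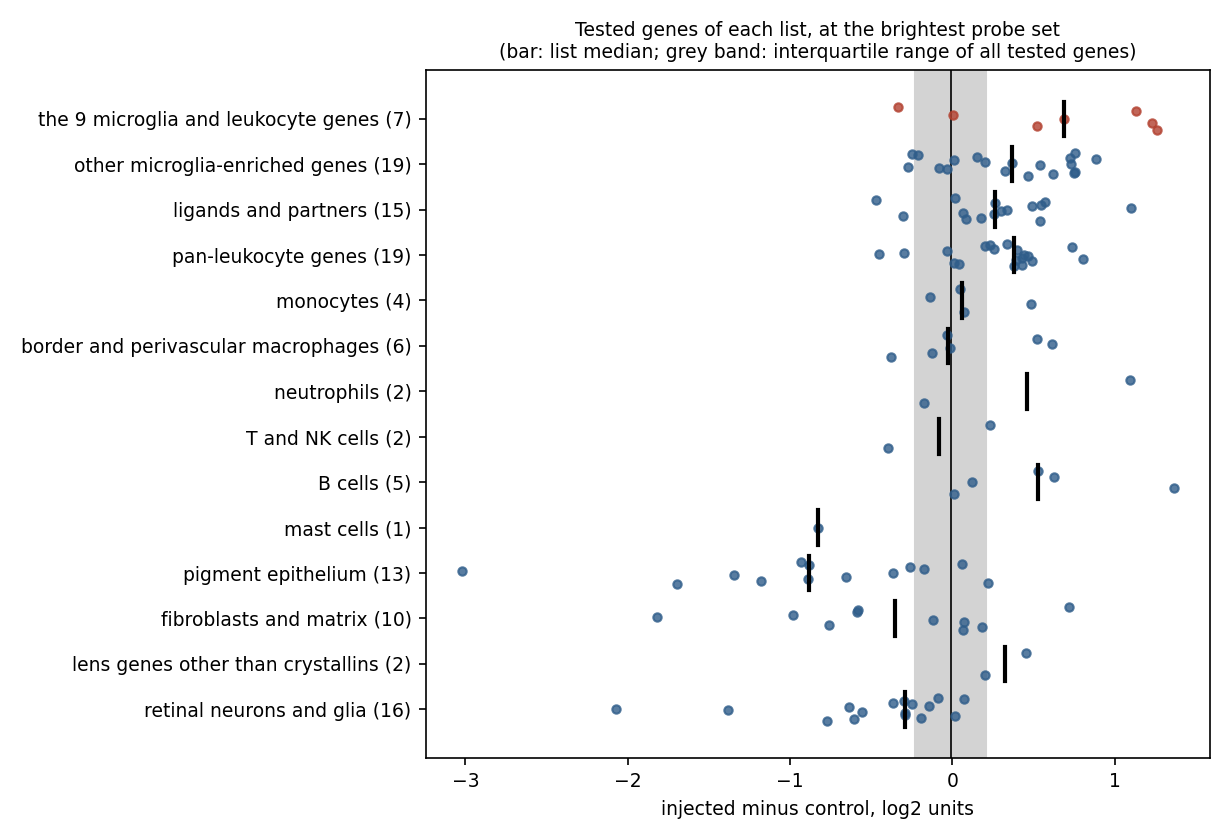
Injected minus control in log2 units for each tested gene of the lists, with the number tested in brackets, the list median as a black bar and the interquartile range of all tested genes as a grey band. The 7 microglia and leukocyte genes have a median of 0.69, the other microglia-enriched genes 0.37, the pan-leukocyte genes 0.38 and the retinal neurons and glia -0.29.

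Of the genes of retinal neurons and glia, 16 of the 16 on the array were above the floor. This does not identify the tissue, since all 10 fibroblast and matrix genes and 12886 of all 18193 genes were above it too. The level of the 16 genes was not equal in the groups. Summed linear intensity ran from 370105 to 512030 in injected and from 509122 to 553013 in control retina, 5 of the 16 were lower at an unadjusted p under 0.05 (2.91% of all tested genes were) and 0 higher, and 0 passed after adjustment by limma. The list's median was -0.29, and without injected replicate 4 it was -0.47, with 8 lower. The cone opsin genes Opn1sw and Opn1mw differed by -2.07 ± 0.51 and -1.39 ± 0.33 (SE). Pigment epithelium genes had a median of -0.88 over 13 tested, with Rpe65, the isomerase of the visual cycle, at -3.02 ± 0.73. That median was -0.27 without control replicate 2, with 5 of the 13 positive, and -0.50 without injected replicate 4. The injected mean of Rpe65, 8.04, lay below the floor, so it was tested only because the control arrays were higher. Arrays were scaled to a common level, so a smaller share of signal from some cells raises the share of others, and its part in the values of the 9 genes was not tested.

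The genes outside the 9 whose values were most like the mean of the 7 tested genes over the 8 arrays were, among 12879 compared, Csf2rb (Pearson r = 0.98), Stat6 (0.98), Serpina3n (0.97), Ms4a6d (0.97), Irf9 (0.97), Nlrc5 (0.96), Angpt1 (0.96), Csf2rb2 (0.96), Crtc3 (0.96) and Samd9l (0.95). Stat6 averaged 9.47 in injected and 7.97 in control retina, and since its control mean lay below the floor it was tested only because the injected arrays were higher. This r holds the difference between the groups, and the 8 points share their scaling. With group means taken out, r ran from 0.69 for Nlrc5 to 0.94 for Ms4a6d. Csf2rb encodes the signalling subunit of the receptor for granulocyte-macrophage colony-stimulating factor and Csf2rb2 a close copy of it, so their probe sets may share signal. Their means were 10.19 ± 0.23 in injected and 9.26 ± 0.27 in control retina for Csf2rb (SD, n = 4 each) and 10.33 ± 0.22 in injected and 9.35 ± 0.29 in control retina for Csf2rb2, differences of 0.93 ± 0.21 and 0.98 ± 0.21 (SE; limma adjusted p = 0.474 and 0.426). Ms4a6d, a membrane protein gene of myeloid cells, differed by 1.83 ± 0.43 (SE; limma adjusted p = 0.482), with means of 11.13 ± 0.79 in injected and 9.31 ± 0.61 in control retina (SD). Nlrc5 differed by 1.66, Serpina3n by 1.21, Samd9l by 1.08, Irf9 by 0.81, Crtc3 by 0.72 and Angpt1 by 0.70. Of the 12879 genes compared, 51 had r over 0.9 with the mean of the 7 genes.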

How the data were processed

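The authors deposited 1 linear intensity per probe set and array for 8 mouse retina samples, without replicates pooled. With the top and bottom 2% removed, every array has a mean of 2500, so the deposited intensities had been scaled to a common target; the software is not given in the sources used here. The 64 control probe sets were left out of the 45101, and probe sets were named through the platform annotation where it gives 1 symbol (34945; 932 had several, 9160 none). All 9 symbols are current in RefSeq.

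Array medians ran from 495 to 766, a ratio of 1.55 and over the limit of 1.5 set for it, so arrays were quantile-normalised and transformed as log2(intensity + 16). The 27022 probe sets at or above the 40th percentile of mean log2 value (about 345 intensity units) were compared with limma 3.58.1 (lmFit and eBayes, R 4.3.3), injected minus control, with Benjamini-Hochberg adjustment over all of them and a threshold of 0.05. The number of arrays limits the precision. Where 1 value per gene was needed, the probe set of highest mean signal was taken. The fit was repeated with pseudocounts of 1 or 64, on unfiltered data, with median centring or the deposited scaling in place of quantile normalisation, with a trended robust prior or none, with array weights (statmod 1.5.0), with the replicate number as a block, with 1 probe set for each gene, and without each array or 2 arrays at once. All genes, lists and tests were chosen with earlier results of these data known. The naming rule gave every one of the 9 genes, up to 4 genes of each other list by smallest p and the 10 genes most correlated with the 9; the text names some of these. Deviations from group means of same-numbered arrays had correlations of 0.08, 0.01, -0.03 and 0.04, so the numbers were not taken to pair samples. Plots were made in Python 3.11.15 (matplotlib 3.10.9).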

Additional observations from a re-analysis of the deposited data

Results flagged for a closer look

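Among the 34 groups of 4 arrays formed by the 17 probe sets, 1 held an array far from the rest by Dixon's criterion, and chance gives about 1 such group in 20. It was Ly86 in injected retina, where replicate 2 had a log2 value of 12.9985 and the nearest array 13.19. The injected group was narrow throughout, and replicate 2 still lay above every control.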

How the results depend on the processing

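No probe set of the 9 genes passed the adjusted threshold in limma or under any of the 19 alternatives. The number of all probe sets that passed was 0 in limma, 8 with array weights and between 0 and 34 when 1 array was left out, the 34 (29 higher, 5 lower) without injected replicate 4. Of the 7 tested genes, the number with injected arrays above all controls was 4 after quantile normalisation and on the deposited scale. It was 0 with centring on array medians. The other alternatives keep the order of the arrays or leave arrays out, so they could hardly change that count. The median difference was 0.45 with centring and ran from 0.61 to 0.75 when 1 array was left out. Between 3 and 5 of the 7 had an unadjusted p under 0.05 with injected higher. Signs turned for P2ry12 with centring (-0.035) and when arrays were left out (-0.17 to 0.34), and for Laptm5 at 1447742_at with centring (-0.020), with array weights (-0.011) and when arrays were left out (-0.14 to 0.34). Csf1 turned with centring (-0.060), when arrays were left out (-0.025 to 0.17) and when 2 were left out together (-0.070), and Cx3cl1 with array weights (-0.062), when arrays were left out (-0.15 to 0.30) and with 2 left out (-0.13). The cause was not tested. Counts of genes at an unadjusted p under 0.05 with injected higher ran over all alternatives from 2 to 5 for the microglia-enriched list (3 in limma), from 2 to 4 for ligands and partners (3) and from 0 to 4 for pan-leukocyte genes (2). With the replicate number as a block, Csf1r was at 1.26 (adjusted p = 0.728), 0 probe sets passed and no call changed; pairing was not borne out by the arrays. Nlrc5 passed with array weights (adjusted p = 0.0454) and without injected replicate 4 (0.0294). Stat6 passed with array weights (0.0454), but its control mean lay below the floor, so it was tested only through its injected arrays. Signal near the floor limits Aif1, Itgam and Spi1.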
